A study of Mus musculus with 14 samples.

Results

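The 49 genes described here encode enzymes of central carbon metabolism: the 10 steps of glycolysis, lactate dehydrogenase, the pyruvate dehydrogenase complex and its kinases, the pentose phosphate pathway, the tricarboxylic acid (TCA) cycle, and the reactions that move malate, aspartate and NADPH around it. They were taken by name from the table of all genes, and all 49 were found among its 35271 genes, of which 21396 are annotated as protein-coding. The list was chosen with earlier results of these data known. The cells were 14 single mesangial cells, the contractile support cells between the capillary loops of the kidney glomerulus, from 1 wild-type male mouse aged 8 weeks. The series' design text gives the strain as C57BL/6, and the sample labels spell it C56BL/6. Glomeruli were pulled out with magnetic beads and broken up with enzymes, and a Fluidigm C1 instrument captured each cell in its own chamber and made its cDNA there, per the labels. All cells belong to 1 group, so nothing was compared between conditions, and with 1 animal the spread between cells says nothing about other mice. Cells are named as the authors named them, GL_M_ followed by a number.

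Glycolysis splits glucose into pyruvate in the cytosol and yields a little ATP and NADH. Pyruvate is then either reduced to lactate by lactate dehydrogenase or carried into mitochondria, where the pyruvate dehydrogenase complex turns it into acetyl-CoA for the TCA cycle. The pentose phosphate pathway branches off at glucose 6-phosphate and supplies NADPH and ribose. Many of these enzymes occur as isozymes encoded by separate genes, and several are complexes that need more than 1 gene product to work. Mesangial cells in culture are known to take up glucose through GLUT1, the product of Slc2a1.

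Levels are RPKM, reads per kilobase of transcript scaled to the reads of the cell, so that levels of different genes can be set side by side. A gene was called detected in a cell at an RPKM of at least 1 and high at an RPKM of at least 10. Read totals recovered from the steps of the values ran from 6.60 to 23.8 M reads per cell (median 9.74 M), at which 3 reads over 1 kb of transcript give an RPKM between 0.126 and 0.455. This floor covers counting error only. Between 1770 (GL_M_60) and 5277 (GL_M_36) genes were detected per cell. Of 8 mesangial markers, including Gata3, Pdgfrb and Serpine2, 6 to 8 were high in every cell, but this list was chosen with earlier results of these data known and is no independent check of the label. Markers of other glomerular cell types were found as well: 8 of 9 endothelial markers were high in GL_M_30, with a summed RPKM of 3796 against a median of 386 over the 14 cells, and 5 of 8 podocyte markers were high in GL_M_55, with a summed RPKM of 2178 against a median of 82.2. The lowest sums in a cell were 2.22 for the endothelial and 0.427 for the podocyte list. Of 7 leukocyte markers only Fcer1g was high in any cell (GL_M_85, 923). Cd3d was detected in 5 cells, highest in GL_M_6 (5.62), and Ms4a1 in GL_M_6 alone (1.93), while Ptprc, Cd68, Lyz2 and Cd74 stayed below 1. None of the 7 proximal tubule, 5 distal tubule and collecting duct or 5 erythroid markers reached 1 in any cell.

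Most of the 49 genes were detected in some cell, but most of them in few cells. The median gene was detected in 3 of 14 cells and high in 2. Because the list was chosen with earlier results of these data known, its shares beside those of protein-coding genes are no independent comparison. Of the 49 genes, 40 (81.6%) were detected in at least 1 cell, against 41.8% of all protein-coding genes. None was detected in all 14 cells. Aldoa, Gapdh, Mdh1 and Mdh2 were high in 10 or more cells, which is 8.16% of the 49 genes and 2.07% of protein-coding genes. In 5 or more cells 11 genes were high (22.4%, against 8.28% of protein-coding genes): these 4, the cytosolic isocitrate dehydrogenase gene Idh1, Ldha, Pdha1, Rpia, Idh3b, Idh3g and Sucla2. Another 18 were high in 2 to 4 cells. In exactly 1 cell 8 genes were high (Pfkm, Pfkp, Ldhb, Dlat, Pdk1, Pdk3, Pgd and Idh3a), which is 21.6% of the 37 genes high in some cell, against 34.4% of the 7260 protein-coding genes of that kind. Pfkl, Pdk4 and Pgls were detected but never high. Hk2, Aldoc, Eno2, Pdk2, Suclg2, Me1, Pcx, Got1 and Got2 were detected in no cell, and of these Aldoc, Suclg2, Me1 and Got1 were listed at 0 in all 14. For 0 of 14 cells the exact 95% Clopper-Pearson interval of the share of cells reaches up to 23.2%.

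The same gene could exceed an RPKM of 1000 in 1 cell and be listed at 0 in another, as Aldoa, Tpi1 and Dlst were. Of the 686 values, 354 (51.6%) were 0 and 140 (20.4%) lay above 0 and below 1. The remainder spread over 53 values from 1 to below 10, 61 from 10 to below 100, 60 from 100 to below 1000, and 18 of 1000 or more. The 10 genes that reached 1000 in some cell were Aldoa, Tpi1, Gapdh, Ldha, Pdhb, Dlst, Sucla2, Mdh2, Idh1 and Mdh1. The median RPKM over cells was 0 for 25 genes, at least 1 for 11 and at least 10 for 5. For the 37 genes high in some cell, the highest single cell held a median of 68.1% of the RPKM summed over cells, close to the 69.6% of the 7260 protein-coding genes.

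**Figure D1:**
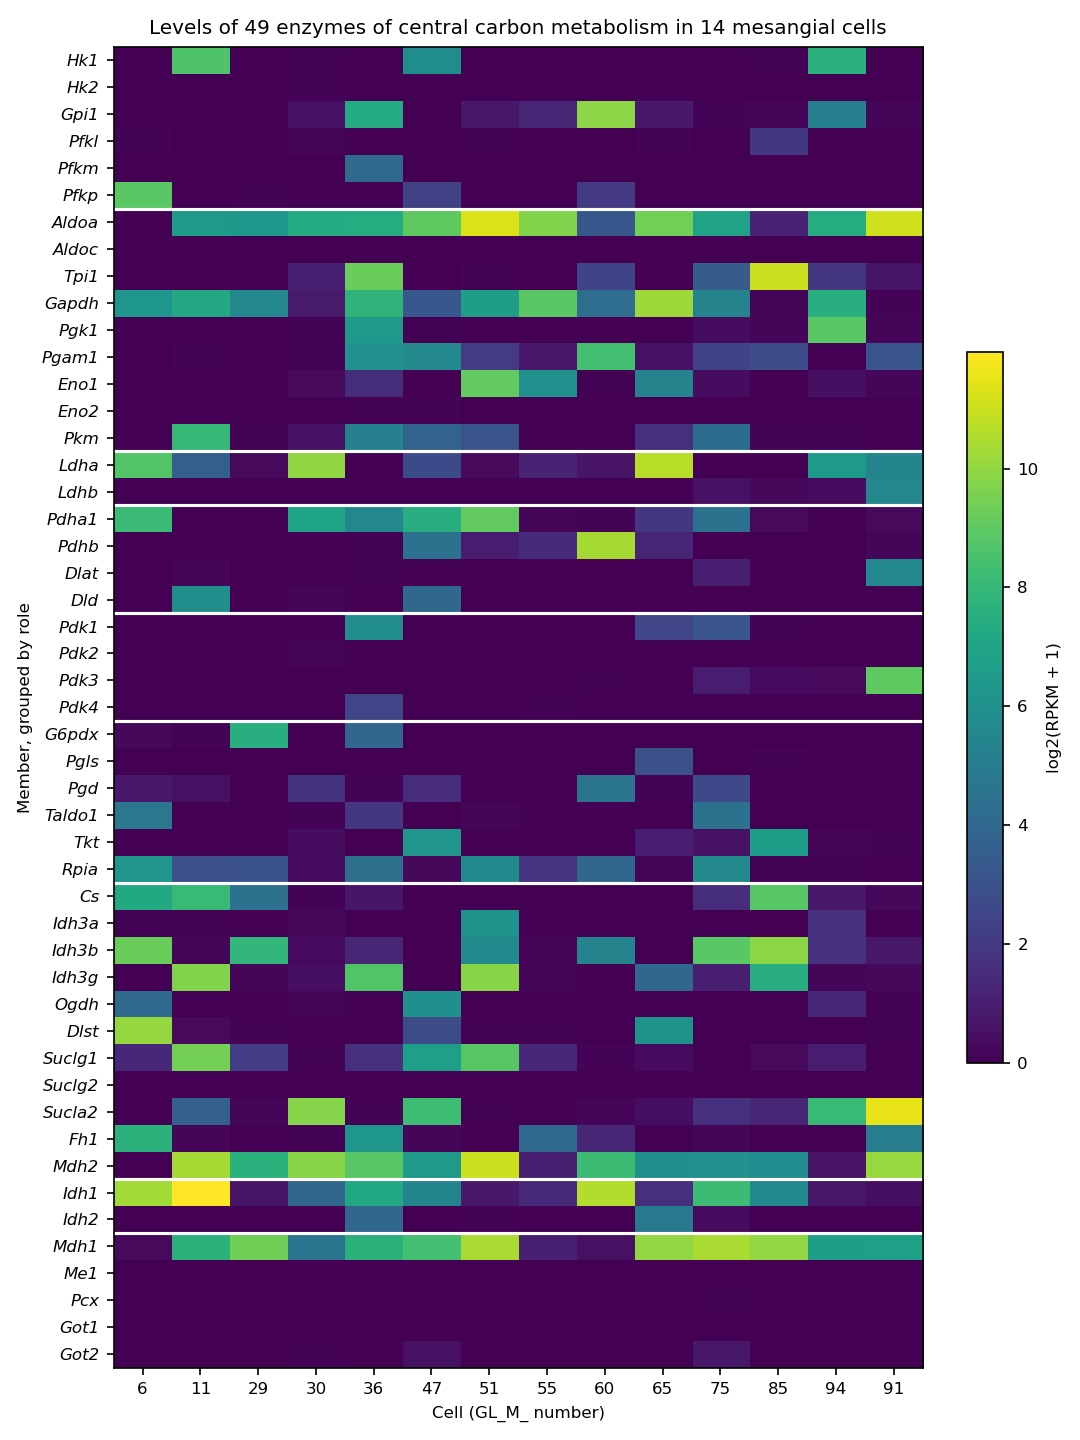
Levels of the 49 genes (rows, in blocks by role with white lines between them) in the 14 cells (columns, GL_M_ number), as log2(RPKM + 1), from 0 (dark) to about 12 (yellow). The rows of Aldoa, Gapdh, Mdh2 and Mdh1 are bright across most cells, and most other rows are dark in most cells.

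The promoters of the 4 genes high in 10 or more cells are shown with that of Suclg2, the GTP-forming succinyl-CoA ligase subunit listed at 0 in every cell, so that annotated start regions of the most widely detected genes and of an undetected gene can be read side by side. Each runs from 250 bases before to 50 bases after a RefSeq transcription start site on GRCm38.p6, on the strand of the gene. These start sites are the ones of the RefSeq table: they match a principal GENCODE start for Aldoa and Gapdh, and lie 46 bases from the nearest for Suclg2, 169 for Mdh2 and 259 for Mdh1. Capitals mark ACGTG, the core of the hypoxia response element bound by HIF, and GGGCGG, the GC box bound by Sp factors, on either strand, with overlapping matches allowed. Aldoa lies at chr7:126799205-126799504 on the minus strand, Gapdh at chr6:125165724-125166023 on the minus strand, Mdh1 at chr11:21571885-21572184 on the minus strand, Mdh2 at chr5:135778399-135778698 on the plus strand and Suclg2 at chr6:95718797-95719096 on the minus strand.
Aldoa: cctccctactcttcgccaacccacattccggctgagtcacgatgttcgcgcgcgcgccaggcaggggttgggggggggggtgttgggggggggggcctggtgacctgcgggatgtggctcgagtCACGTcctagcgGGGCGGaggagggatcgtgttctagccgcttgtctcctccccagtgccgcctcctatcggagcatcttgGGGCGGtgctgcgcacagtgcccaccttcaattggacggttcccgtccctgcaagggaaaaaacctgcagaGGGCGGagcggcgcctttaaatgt
Gapdh: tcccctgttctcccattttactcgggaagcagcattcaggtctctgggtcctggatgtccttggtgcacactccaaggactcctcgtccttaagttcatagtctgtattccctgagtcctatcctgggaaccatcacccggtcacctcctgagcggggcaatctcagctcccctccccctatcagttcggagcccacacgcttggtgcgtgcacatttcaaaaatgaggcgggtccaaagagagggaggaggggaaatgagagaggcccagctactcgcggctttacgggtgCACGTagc
Mdh1: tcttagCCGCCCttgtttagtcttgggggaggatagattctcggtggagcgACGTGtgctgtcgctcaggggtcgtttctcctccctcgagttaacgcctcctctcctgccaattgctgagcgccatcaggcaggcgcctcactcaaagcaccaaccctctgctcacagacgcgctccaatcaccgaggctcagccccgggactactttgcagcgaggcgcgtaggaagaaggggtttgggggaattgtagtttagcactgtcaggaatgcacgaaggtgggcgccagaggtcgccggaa
Mdh2: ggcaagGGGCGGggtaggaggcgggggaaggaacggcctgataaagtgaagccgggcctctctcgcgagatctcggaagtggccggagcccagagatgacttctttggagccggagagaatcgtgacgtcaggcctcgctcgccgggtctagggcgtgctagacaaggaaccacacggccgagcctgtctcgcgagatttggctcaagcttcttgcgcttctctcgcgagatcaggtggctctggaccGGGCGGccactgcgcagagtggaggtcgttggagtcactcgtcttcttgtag
Suclg2: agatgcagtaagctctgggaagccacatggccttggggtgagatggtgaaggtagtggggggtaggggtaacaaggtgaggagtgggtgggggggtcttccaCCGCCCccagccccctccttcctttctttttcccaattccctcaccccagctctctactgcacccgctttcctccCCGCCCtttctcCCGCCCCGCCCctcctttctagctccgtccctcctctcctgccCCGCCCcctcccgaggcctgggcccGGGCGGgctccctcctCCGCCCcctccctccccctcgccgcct

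These windows held 1 ACGTG and 3 GGGCGG for Aldoa, 1 and 0 for Gapdh, 1 and 1 for Mdh1, 0 and 2 for Mdh2, and 0 and 7 for Suclg2. Of the other genes listed at 0 in every cell, not shown here, Aldoc and Got1 each held 0 and 0, and Me1 held 0 and 4. Suclg2 thus had the most GGGCGG of the genes at 0 in every cell and does not stand for them. ACGTG occurred in 26 of the 70 promoters listed for the genes (37.1%, belonging to 19 of 48 genes with an entry) and in 19.6% of all 32851 promoters of the table. GGGCGG occurred in 40 of the 70 (57.1%, 34 of 48 genes) and in 35.7% of all. ACGTG also lies within the E-box CACGTG, and matches of that kind were counted too. The matches describe letters in these windows and say nothing of which factor binds there.

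At the entry of glycolysis, the hexose phosphate steps were detected in few cells. Hexokinase, which phosphorylates glucose, came from Hk1 at 411 RPKM in GL_M_11, 200.0 in GL_M_94 and 59.7 in GL_M_47, and from Hk2 in none, with its highest value at 0.1002 in GL_M_30. The other 11 cells had no hexokinase at an RPKM of 1. Gpi1, which turns glucose 6-phosphate into fructose 6-phosphate and had the highest median of these steps, was high in 3 cells: 954 in GL_M_60, 164 in GL_M_36 and 35.6 in GL_M_94. Below 10 the values of Gpi1 were 1.45 in GL_M_55, 0.750 in GL_M_65, 0.680 in GL_M_51, 0.457 in GL_M_30, 0.146 in GL_M_91, 0.126 in GL_M_85 and 0.0980 in GL_M_75, and it was listed at 0 in GL_M_6, GL_M_11, GL_M_29 and GL_M_47. Its median was 0.302, under the detection level.

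Phosphofructokinase, the committing step of glycolysis, was detected in 5 cells and came from a single isozyme gene in each of them. The platelet-type gene Pfkp had 478 in GL_M_6, 4.10 in GL_M_47 and 3.16 in GL_M_60. The muscle-type gene Pfkm had 16.8 in GL_M_36, and the liver-type gene Pfkl had 2.81 in GL_M_85. The annotated span of Pfkp overlaps that of Pitrm1, a mitochondrial protease gene, which reached 86.9 in GL_M_65. Whether the counting used strand is not given, so reads in the overlap cannot be assigned with certainty.

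Aldolase and glyceraldehyde 3-phosphate dehydrogenase (GAPDH) were the steps of glycolysis detected most widely. Aldoa, the aldolase that cleaves fructose 1,6-bisphosphate, was high in 11 cells: 2544 in GL_M_51, 2165 in GL_M_91, 819 in GL_M_55, 689 in GL_M_65, 509 in GL_M_47, 169 in GL_M_94, 167 in GL_M_36, 165 in GL_M_30, 118 in GL_M_75, 91.05 in GL_M_11 and 81.2 in GL_M_29. It also had 8.17 in GL_M_60 and 1.18 in GL_M_85, and was listed at 0 in GL_M_6. Its median was 166. Aldoc, the brain-type aldolase, was listed at 0 throughout, so aldolase transcripts came from Aldoa alone in all 13 cells that had any.

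Gapdh, whose product makes the NADH of glycolysis, was above 0 in all 14 cells and high in 10: 1174 in GL_M_65, 482 in GL_M_55, 219.6 in GL_M_36, 181 in GL_M_94, 148 in GL_M_11, 104 in GL_M_51, 78.0 in GL_M_6, 48.98 in GL_M_29, 40.0 in GL_M_75 and 18.6 in GL_M_60. It was also detected in GL_M_47 (8.51), and lay below 1 in GL_M_30 (0.837), GL_M_85 (0.130) and GL_M_91 (0.0751). The mean was 5.31 ± 3.20 on the log2(RPKM + 1) scale (SD over n = 14 cells). The listed levels of a gene often used as a reference therefore spanned a wide range in these cells. Gapdh has many processed copies in the mouse genome: 58.4% of the 50-base windows of its protein-coding transcripts also occur in transcripts of other loci. The 53 copies in the table that hold at least 10% of these windows summed to more RPKM than Gapdh itself in 4 cells, with 11.8 against 0.837 in GL_M_30, 10.5 against 8.51 in GL_M_47, 22.5 against 0.130 in GL_M_85 and 7.23 against 0.0751 in GL_M_91. How the authors treated reads that fit several places is not given, so the levels of Gapdh are uncertain in all 14 cells, these 4 included.

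The steps between and after them were patchier. Triosephosphate isomerase (Tpi1), which interconverts the pair of triose phosphates, was detected in 6 cells and high in GL_M_85 (2067) and GL_M_36 (616). Phosphoglycerate kinase (Pgk1), an ATP-forming step, was detected in GL_M_94 (482) and GL_M_36 (88.7) and in no other cell. Phosphoglycerate mutase (Pgam1) was detected in 7 cells, from 3.18 in GL_M_51 to 335 in GL_M_60. Enolase came from Eno1 in 4 cells, with 547 in GL_M_51, 65.4 in GL_M_55, 39.2 in GL_M_65 and 1.92 in GL_M_36, and the neuronal-type gene Eno2 stayed below 0.1. Pyruvate kinase (Pkm), the last step, was detected in 6 cells, highest in GL_M_11 (254). Pgk1, Eno1 and Pgam1 share 68.0%, 49.5% and 41.5% of their windows with other loci. Copies in the table with at least 10% of these windows summed to less than the gene wherever they were above 0. Those of Eno1 reached 10.9 in GL_M_55, those of Pgk1 0.0753 in GL_M_94, and those of Pgam1 were at 0. Gm11203, which shares fewer windows with Pgam1, reached 0.283. Low copies do not settle the levels of these genes, because reads left out for fitting several places would be missing from both.

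No cell had every step of glycolysis detected. The number ran from 2 of 10 steps (GL_M_6, GL_M_29, GL_M_30 and GL_M_91) to 9 (GL_M_36), with a median of 4. GL_M_36 lacked only hexokinase, and it was also the cell with the most genes detected of all kinds. By step, aldolase was detected in 13 cells, GAPDH in 11, phosphoglycerate mutase in 7, triosephosphate isomerase and pyruvate kinase in 6 each, phosphofructokinase in 5, phosphoglucose isomerase and enolase in 4 each, hexokinase in 3 and phosphoglycerate kinase in 2. With 14 cells these shares are loose: 13 of 14 cells has an exact 95% interval of 66.1% to 99.8%, and 2 of 14 one of 1.78% to 42.8%. They limit the share of cells with detected reads, not of cells that make the enzyme.

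**Figure D2:**
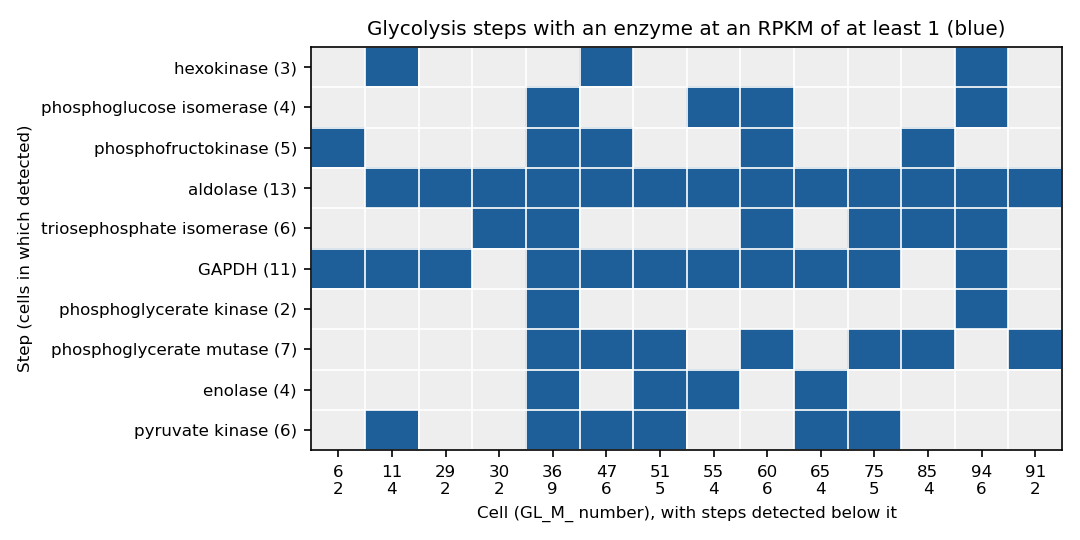
Detection of each of the 10 glycolysis steps (rows, with the number of cells in parentheses) in each cell (columns, with the number of steps under the cell number), where blue means that at least 1 isozyme gene had an RPKM of at least 1. The rows of aldolase and GAPDH are filled in 13 and 11 cells, and only GL_M_36 fills 9 rows.

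Pyruvate reduction was represented by Ldha, the A subunit of lactate dehydrogenase, in 8 cells. It was high in 6: 1614 in GL_M_65, 995 in GL_M_30, 418 in GL_M_6, 91.9 in GL_M_94, 42.8 in GL_M_91 and 10.9 in GL_M_11. Lower values were 5.48 in GL_M_47, 1.27 in GL_M_55, 0.540 in GL_M_60, 0.232 in GL_M_29 and 0.225 in GL_M_51, and it was listed at 0 in GL_M_36, GL_M_75 and GL_M_85. The median of Ldha was 3.37. Ldhb, the B subunit, was detected in GL_M_91 alone, at 45.0 beside 42.8 for Ldha, so GL_M_91 was the only cell with both subunits. GL_M_30, with the second highest Ldha, was also the cell in which 8 of 9 endothelial markers were high (Cdh5 12.7, Kdr 127, Egfl7 1199). The part of these in its Ldha level was not tested.

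The genes of the pyruvate dehydrogenase complex, which turns pyruvate into acetyl-CoA, were mostly detected singly. Pdha1, the alpha subunit of the E1 enzyme of pyruvate dehydrogenase, led the complex with a median of 1.47 and was high in 6 cells: 539 in GL_M_51, 288 in GL_M_6, 173 in GL_M_47, 122 in GL_M_30, 46.5 in GL_M_36 and 22.0 in GL_M_75. Lower values were 2.69 in GL_M_65, 0.251 in GL_M_85, 0.242 in GL_M_91, 0.113 in GL_M_55 and 0.0360 in GL_M_60, and Pdha1 was listed at 0 in GL_M_11, GL_M_29 and GL_M_94. Its E1 partner Pdhb had 1293 in GL_M_60 and 21.1 in GL_M_47, with 1.68 in GL_M_55 and 1.33 in GL_M_65 as the only other values above 1, and 30.3% of its windows occur at other loci. The acetyltransferase gene Dlat was detected in GL_M_91 (46.3) and GL_M_75 (1.03), and Dld, the dihydrolipoamide dehydrogenase that several complexes share, in GL_M_11 (59.3) and GL_M_47 (15.5). Dlat and Dld were each detected in only 2 cells, and all 4 subunit genes were detected together in 0 cells. GL_M_47 had 3 of them (Pdha1, Pdhb and Dld), 2 cells had 2, 8 cells had 1 and 3 cells had none.

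The kinases that switch off pyruvate dehydrogenase were detected in 4 cells. Pdk1 had 60.2 in GL_M_36, 7.92 in GL_M_75 and 4.58 in GL_M_65. Pdk3 had 514 in GL_M_91, and Pdk4, a kinase gene induced by fasting in many tissues, had 4.63 in GL_M_36. Pdk2 was above 0 only in GL_M_30, at 0.168. GL_M_36 was the single cell with a pair of kinases detected, and the median of each of the 4 genes was 0.

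The 6 pentose phosphate genes had a lower summed level than the 15 genes of glycolysis or the 11 of the TCA cycle in every cell but GL_M_29, where they summed to 191 RPKM and glycolysis to 130.3. Together they took a median of 0.00634% of a cell's summed RPKM, from 1.22e-05% in GL_M_91 to 0.0332% in GL_M_29. Rpia, the ribose 5-phosphate isomerase of the non-oxidative arm, had the highest median, 4.57, and was high in 5 cells: 73.7 in GL_M_6, 49.7 in GL_M_51, 48.9 in GL_M_75, 20.4 in GL_M_36 and 14.7 in GL_M_60. Lower values of Rpia were 7.21 in GL_M_29, 6.67 in GL_M_11, 2.48 in GL_M_55, 0.303 in GL_M_30, 0.193 in GL_M_47, 0.112 in GL_M_65, 0.0629 in GL_M_94 and 0.0471 in GL_M_85, and it was at 0 in GL_M_91. It was detected in 8 cells, more than any other gene of the pathway. In the oxidative arm, which makes NADPH, G6pdx had 184 in GL_M_29 and 14.2 in GL_M_36, Pgls had 6.86 in GL_M_65, and Pgd was detected in 4 cells, highest in GL_M_60 (23.2). No cell had a pair of these 3 oxidative genes detected together, and none of the 3 was detected in more than 4 cells. Transketolase (Tkt) had 102 in GL_M_85, 75.3 in GL_M_47 and 1.04 in GL_M_65, and transaldolase (Taldo1) had 25.4 in GL_M_6, 21.3 in GL_M_75 and 2.84 in GL_M_36.

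The most widely detected gene of the TCA cycle was Mdh2, the mitochondrial malate dehydrogenase that closes it. It was high in 11 cells: 2087 in GL_M_51, 1319 in GL_M_11, 1113 in GL_M_91, 906 in GL_M_30, 469 in GL_M_36, 291 in GL_M_60, 198 in GL_M_29, 84.3 in GL_M_47, 65.9 in GL_M_75, 62.3 in GL_M_65 and 55.1 in GL_M_85. It had 1.10 in GL_M_55 and 0.546 in GL_M_94, and was listed at 0 in GL_M_6. Its median was 141, the highest of the 11 genes of the cycle. Citrate synthase (Cs), which starts the cycle, was high in 4 cells, at 456 in GL_M_85, 274 in GL_M_11, 152 in GL_M_6 and 21.9 in GL_M_29. Fumarase (Fh1) was the only gene of the 49 that was high in at least 4 cells and listed at 0 in at least 4 (2.04%, against 3.03% of protein-coding genes). Its high values were 207 in GL_M_6, 77.5 in GL_M_36, 31.7 in GL_M_91 and 16.2 in GL_M_55, and the others were 1.44 in GL_M_60, 0.152 in GL_M_47, 0.144 in GL_M_75, 0.118 in GL_M_11 and 0.0748 in GL_M_30, with 0 in GL_M_29, GL_M_51, GL_M_65, GL_M_85 and GL_M_94.

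The subunits of the multi-gene TCA enzymes were seldom found together, and no subunit gene was detected in more than 8 cells. Joint detection of other genes was not computed, so the counts here do not show that subunits exclude each other. Of NAD isocitrate dehydrogenase, the beta subunit Idh3b was detected in 8 cells (highest 951 in GL_M_85), the gamma subunit Idh3g in 5 (highest 921 in GL_M_51) and the catalytic alpha subunit Idh3a in 2 (66.6 in GL_M_51 and 2.12 in GL_M_94). GL_M_51 was the only cell with all 3. Of oxoglutarate dehydrogenase, Ogdh and Dlst were detected in 3 cells each, Dlst reaching 1091 in GL_M_6, and GL_M_47 was the only cell with both and Dld. Of succinyl-CoA ligase, the alpha subunit Suclg1 and the ATP-forming beta subunit Sucla2 were detected in 7 cells each, with their highest values at 700.1 in GL_M_11 and 2996 in GL_M_91. They met in 2 cells, GL_M_11 and GL_M_47. The GTP-forming beta subunit Suclg2 was listed at 0 in all cells, so the beta subunit detected was Sucla2 in every cell that had one.

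NADP isocitrate dehydrogenases, which make NADPH from isocitrate, were led by the cytosolic Idh1. It was above 0 in all 14 cells, with a mean of 4.93 ± 4.14 on the log2(RPKM + 1) scale (SD over n = 14 cells), and high in 8: 3998 in GL_M_11, 1558 in GL_M_60, 1249 in GL_M_6, 289 in GL_M_75, 140.1 in GL_M_36, 51.01 in GL_M_85, 41.0 in GL_M_47 and 14.5 in GL_M_30. The other 6 cells had 2.13 in GL_M_65, 1.69 in GL_M_55, 0.771 in GL_M_51, 0.717 in GL_M_94, 0.595 in GL_M_29 and 0.362 in GL_M_91. The 3998 in GL_M_11 was the highest value of any of the 49 genes in any cell. Idh2, the mitochondrial enzyme, was detected in GL_M_65 (27.2, beside 2.13 for Idh1) and GL_M_36 (14.2, beside 140.1).

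Mdh1, the cytosolic malate dehydrogenase of the malate-aspartate shuttle, was above 0 in all 14 cells and had the highest median of the 49 genes, 205. It was high in 11 cells: 1417 in GL_M_51, 1382 in GL_M_75, 1052 in GL_M_65, 1029.7 in GL_M_85, 671 in GL_M_29, 332 in GL_M_47, 207 in GL_M_36, 202 in GL_M_11, 115 in GL_M_91, 99.99 in GL_M_94 and 23.5 in GL_M_30. It had 1.08 in GL_M_55, 0.429 in GL_M_60 and 0.253 in GL_M_6, and averaged 6.72 ± 3.69 on the log2(RPKM + 1) scale (SD over n = 14 cells). The other genes of these side routes were not detected. The shuttle's transaminases Got1 and Got2 stayed at 0 and at or below 0.733, the cytosolic malic enzyme gene Me1 was at 0, and pyruvate carboxylase (Pcx) was above 0 only in GL_M_75, at 0.0366. Outside the 49 genes, the mitochondrial malic enzyme genes, named after their values were seen, were detected: Me2 in 3 cells, highest in GL_M_36 (36.5), and Me3 in 2, highest in GL_M_6 (10.2). Of the 50-base windows of Got2 and Me1, 42.0% and 30.4% also occur at other loci.

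The cytosolic and mitochondrial malate dehydrogenases were the only isozyme pair found together in most cells. Both were high in 10 cells, and in these the ratio of Mdh1 to Mdh2 in RPKM ran from 0.0259 in GL_M_30 to 20.99 in GL_M_75. Without GL_M_30, in which 8 of 9 endothelial markers were high, the lowest ratio was 0.104 in GL_M_91. Mdh1 was the higher in GL_M_29, GL_M_47, GL_M_65, GL_M_75 and GL_M_85, and Mdh2 was the higher in GL_M_11, GL_M_30, GL_M_36, GL_M_51 and GL_M_91. GL_M_60 had Mdh2 high and Mdh1 at 0.429, and GL_M_94 had Mdh1 high and Mdh2 at 0.546. Hexokinase, phosphofructokinase, aldolase, enolase and succinyl-CoA ligase beta genes showed no cell with more than 1 isozyme detected. In all of these but phosphofructokinase, the other gene of the pair was detected in no cell. More than 1 isozyme was detected in 1 cell for lactate dehydrogenase, 1 for pyruvate dehydrogenase kinase and 2 for NADP isocitrate dehydrogenase.

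**Figure D3:**
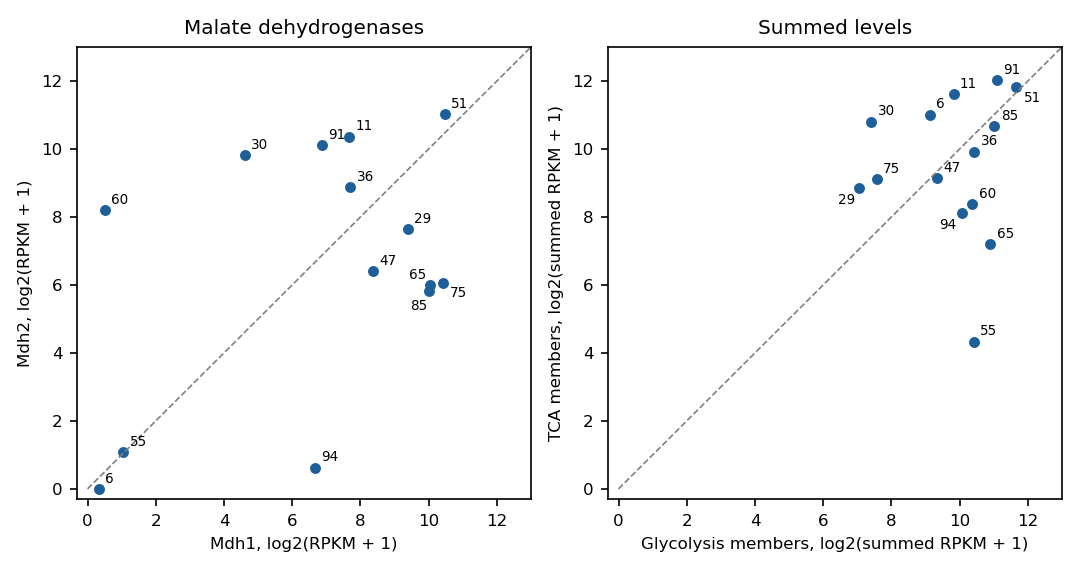
Left, Mdh1 (horizontal) against Mdh2 (vertical) in each cell, both as log2(RPKM + 1). Right, the RPKM of the 15 glycolysis genes summed per cell (horizontal) against that of the 11 TCA cycle genes (vertical), as log2 of the sum + 1. Each point is 1 cell with its GL_M_ number, and the dashed line marks equal values, with 7 cells on each side of it on the right.

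The low cells of the 4 most widespread genes overlapped only in part. All 4 were high in GL_M_11, GL_M_29, GL_M_36, GL_M_51, GL_M_65 and GL_M_75, 3 of them in GL_M_30, GL_M_47, GL_M_91 and GL_M_94, 2 in GL_M_55, GL_M_60 and GL_M_85, and 1 in GL_M_6. In GL_M_6 only Gapdh was high (78.0), whereas Idh1 (1249) and Dlst (1091) were among its most abundant central carbon transcripts. Leaving out GL_M_30 and GL_M_55, the cells with the highest summed endothelial and podocyte markers, Mdh1 and Mdh2 were still high in 10 of the remaining 12 cells and Aldoa and Gapdh in 9.

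**Figure D4:**
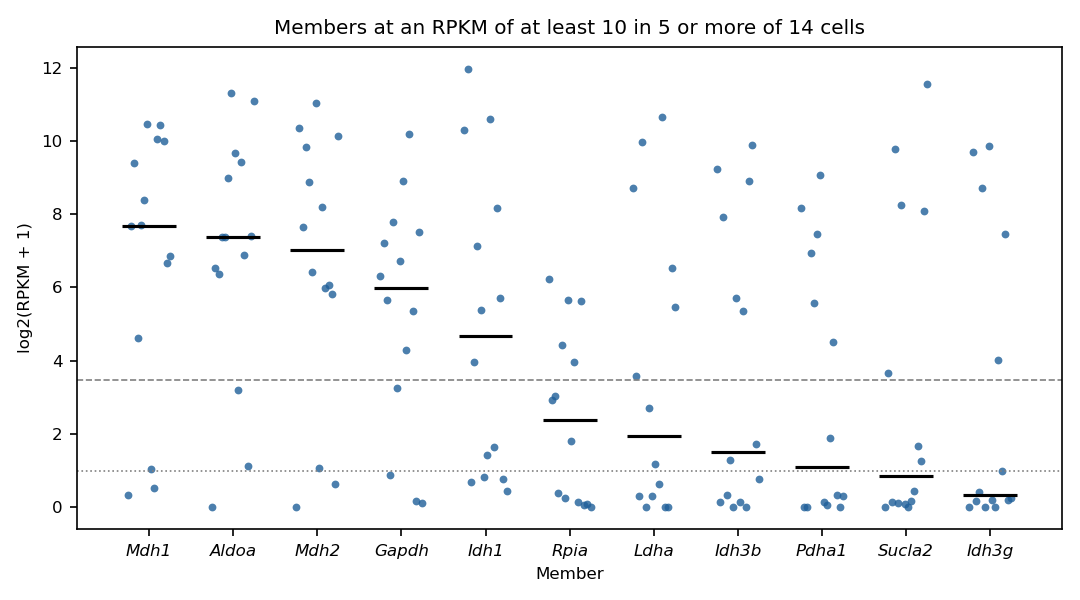
Levels in the 14 cells, as log2(RPKM + 1), of the 11 genes high in 5 or more cells, ordered by median. Each point is 1 cell, the bar is the median, and the dotted and dashed lines mark an RPKM of 1 and of 10. The points of Mdh1, Aldoa, Mdh2 and Gapdh lie mostly above the dashed line, and those of the other 7 genes fall on both sides of it.

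Cells also differed in the share of their summed RPKM that fell on these enzymes. The 49 genes took from 0.253% (GL_M_29) to 1.54% (GL_M_51) of a cell's summed RPKM, with a median of 0.6301%. The 15 glycolysis genes took a median of 0.199% (0.0226% in GL_M_29 to 0.561% in GL_M_51) and the 11 TCA genes a median of 0.135% (0.00358% in GL_M_55 to 0.703% in GL_M_91). The glycolysis sum was the higher in 7 cells (GL_M_36, GL_M_47, GL_M_55, GL_M_60, GL_M_65, GL_M_85 and GL_M_94) and the TCA sum in the other 7. In GL_M_55 the glycolysis genes summed to 1369 RPKM and the TCA genes to 19.1. GL_M_55 was also the cell with 5 of 8 podocyte markers high, among them Wt1 (612) and Cd2ap (421), and the part of these in its balance was not tested. Without GL_M_55 the lowest TCA share was 0.0249%, in GL_M_65. A single gene led each cell: Aldoa or Idh1 in 3 cells each, Ldha, Mdh1 or Tpi1 in 2 each, and Pgk1 or Sucla2 in 1 each, with 21.6% (GL_M_36) to 58.7% (GL_M_55) of the RPKM of the 49 genes.

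Between 9 (GL_M_29 and GL_M_30) and 23 (GL_M_36) of the 49 genes were detected per cell, with a median of 13, and between 4 (GL_M_55) and 18 (GL_M_36) were high. The cells with the most of them, GL_M_36 and GL_M_47 (19), also had the most protein-coding genes detected, 4771 and 4379. As a share of the protein-coding genes detected, the 49 genes made up from 0.320% (GL_M_30) to 0.797% (GL_M_60), against 0.229% of all annotated protein-coding genes. GL_M_55 differed from the others in that 8 of its 12 detected genes lay between 1 and 10, and 7 of those 8 were under 0.5% of the same gene's highest cell.

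**Figure D5:**
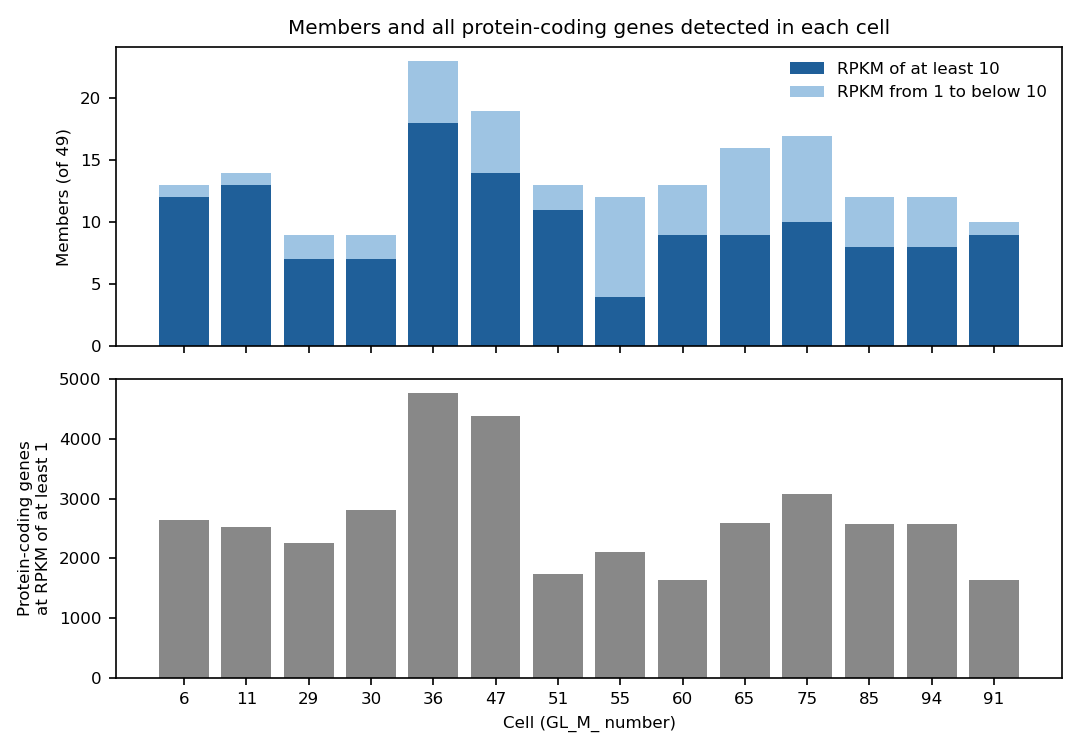
Top, the number of the 49 genes with an RPKM of at least 10 (dark) and from 1 to below 10 (light) in each cell (GL_M_ number). Bottom, the number of protein-coding genes with an RPKM of at least 1 in the same cells. GL_M_36 and GL_M_47 are the tallest in both, and GL_M_55 is the only cell in which the light part exceeds the dark part.

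Of 60 other genes of these pathways 29 were detected in some cell (48.3%, against 41.8% of protein-coding genes), 24 were high in some cell (40.0%, against 33.9%), and 2 were high in 5 or more (3.33%, against 8.28%). These shares lay near those of all protein-coding genes or, for the last, below them. The 2 genes high in 5 or more cells were Mpc1, a subunit of the carrier that brings pyruvate into mitochondria, high in 7 cells (highest 539 in GL_M_85), and Sdha, the flavoprotein subunit of succinate dehydrogenase, high in 6 (highest 1059 in GL_M_65). Slc2a1, which encodes the glucose transporter GLUT1, was detected in 7 cells and high in GL_M_60 (1178), GL_M_91 (25.7) and GL_M_36 (10.6), while the glucose transporter genes Slc2a3 and Slc2a4 and the lactate transporter genes Slc16a1 and Slc16a3 were detected in no cell. Of glycolysis regulators, Pfkfb3, which makes the activator of phosphofructokinase, was high in GL_M_60 (438) and GL_M_6 (10.9), and Hif1a, the hypoxia-inducible factor that drives many glycolytic genes, in GL_M_94 (391), GL_M_6 (106), GL_M_60 (30.7) and GL_M_85 (13.7). The gluconeogenic Fbp1, Fbp2 and Pck1 were not detected, nor were Pfkfb1, Pfkfb2 and Pfkfb4, the sister genes of Pfkfb3.

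Of 14 further isozyme genes and enzymes beside glycolysis, 12 were detected in no cell, as were 58.2% of protein-coding genes. Among them were the hexokinases Hk3 and Hkdc1, the liver-type Pklr, the muscle-type Pgam2 and Eno3, the testis-type Gapdhs, Pgk2, Ldhc and Pdha2, and the D-lactate dehydrogenase Ldhd. Of the 4 succinate dehydrogenase subunits, between 0 and 3 were detected per cell, and the membrane anchor Sdhc was highest in GL_M_75 (776). Aco1, the iron regulatory protein gene, was not detected. Pdhx, the structural partner of pyruvate dehydrogenase, was detected in 9 cells and high in none, with values up to 8.80 in GL_M_36, and the phosphatase gene Pdp1, which switches the complex back on, had 44.7 in GL_M_47 and stayed below 1 elsewhere. In the pentose phosphate list, H6pd, the glucose 6-phosphate dehydrogenase of the endoplasmic reticulum, was high in GL_M_30 (298) and Pgm1, which links glycogen to glucose 6-phosphate, in GL_M_75 (64.0), while Rpe, Tktl1, Tktl2 and Pgm2 were not detected. Of the shuttle carriers, the aspartate-glutamate carrier Slc25a12 was high in GL_M_60 (1056) and GL_M_47 (10.2), and the carrier genes Slc25a1 and Slc25a10 and the cytosolic glycerol 3-phosphate dehydrogenase genes Gpd1 and Gpd1l were detected in no cell.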

How the data were processed

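RNA of 14 single mesangial cells of 1 mouse was sequenced, and every sample is 1 cell of 1 group. The deposited values are RPKM made by the authors, in 1 table with a column per cell. Per the submitters' processing notes, the tools were TopHat2 2.0.12 and HTSeq 0.6.1, and the build was mm10. The annotation counted, the use of strand, the handling of reads with several matches and the choice of cells were not given in the sources used here.

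Ensembl IDs were matched to symbols, gene types and positions in GENCODE M21 (GRCm38, the same assembly as mm10), and 34488 of 35271 matched. The 49 genes and the lists of other pathway genes and of cell type markers were chosen with earlier results of these data known. Detection was an RPKM of at least 1 and a high level an RPKM of at least 10, and log levels used a pseudocount of 1. The rule for named genes took the gene with the highest median of each role, genes above 0 in every cell, isozyme pairs high in at least 3 cells each, and genes high in at least 4 and at 0 in at least 4 cells with their values in every cell. The other genes are given by ranges, counts and high values, and of each pathway list the 2 highest medians and the undetected genes are named, apart from a few genes that are not reported here.

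With 1 animal, and cells of 1 animal being no replicates, no p-value or standard error was computed. Means with SD over cells are given for genes above 0 in all 14 cells only. Read totals of the cells were inferred from the spacing of low values at 14953 genes with 1 annotated transcript, where 80.5% to 89.9% of values below 50 reads were whole reads to within 0.02. Tested on simulated data for the same 14953 genes, 14 of 14 totals came back within 0.1 percent. The labels mention no molecular identifiers, so floors and intervals cover counting error only. Shared sequence was the percent of 50-base windows of a gene's protein-coding transcripts that occur in transcripts of other loci. Promoters came from a RefSeq table (GRCm38.p6), matched by symbol for 48 of 49 genes, without Idh3a. Alternatives were other detection levels, pseudocounts of 0.1 and 10, rescaling each cell to the same RPKM total, leaving out GL_M_30 and GL_M_55, and leaving out genes with much shared sequence. Python 3.11.15 was used with pandas 2.3.3, numpy 2.4.6, scipy 1.17.1 and matplotlib 3.10.9.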

Additional observations from a re-analysis of the deposited data

How the results depend on the processing

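Of 121 values recomputed under the alternatives, 9 moved, by at least the spread between cells (1 SD) for medians per cell or by over 1.5 times for counts, and 112 did not. Counting every RPKM above 0 as detected moved the genes detected in every cell to 3 (main 0), the median per cell to 24 genes (main 13) and 8 glycolysis steps (main 4), and the cells with all subunits to 2 for oxoglutarate dehydrogenase (main 1), 4 for NAD isocitrate dehydrogenase (main 1) and 10 for succinyl-CoA ligase (main 2). An RPKM of at least 10 moved the median per cell to 9 genes and the cells with complete oxoglutarate dehydrogenase to 0. Without GL_M_30 and GL_M_55, 2 genes were high in 10 or more cells (main 4), with fewer cells to be high in. Without the 7 genes that share at least 25% of their windows, the median fell to 2.5 glycolysis steps (main 4). The glycolysis share fell to 0.125% of summed RPKM (main 0.199%), and both falls were within 1 SD between cells. Gapdh, Pgk1, Pgam1 and Eno1 are among these 7 genes. Their steps were then detected in no cell, so lower values were fixed in advance. Setting values below 10 to 0 where they were under 0.5% of the gene's highest cell, an alternative chosen after seeing the data, moved no count past 1.5 times, with a median of 11.5 genes per cell. The 25 recomputed levels of single genes moved by less than the spread between cells. Detection is limited: a value of 0 does not show that the transcript was not there. Of the 53 values from 1 to below 10, 26 were under 0.5% of the gene's highest cell. Genes detected did not rise with reads: GL_M_60 (23.8 M reads), GL_M_51 (19.0 M) and GL_M_91 (17.7 M) had the most reads and the fewest genes (1770, 1894 and 1810). GL_M_75, with the fewest reads (6.60 M), had 3419. The reason was not tested. No paired analysis was possible because all cells belong to 1 group.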

Other observations

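Several genes of these pathways peaked in GL_M_60, the most deeply sequenced cell, and were listed at small fractions of that level in GL_M_51, GL_M_55 and GL_M_65. These genes were chosen after their values were seen, as those with their highest cell in GL_M_60 at an RPKM of at least 100. Slc2a1 had 1178 in GL_M_60, and 2.13, 2.83 and 1.60 in GL_M_51, GL_M_55 and GL_M_65, which is 0.181%, 0.240% and 0.136% of it, with a median of 0.0415 in the other 10 cells. Pdhb had 1293 in GL_M_60, and 0.884, 1.68 and 1.33 in those 3 cells, with a median of 0 in the other 10. Slc25a12 had 1056 in GL_M_60, and 0.849, 2.84 and 1.11 in those cells, with a median of 0.0392 in the other 10. Gpi1 had 954 in GL_M_60, and 0.680, 1.45 and 0.750 in those cells, with a median of 0.112 in the other 10. Pgam1 had 335 in GL_M_60, but its median in the other 10 cells, 2.24, was near the 3.18, 0.791 and 0.443 of those 3 cells. Sdhb likewise had 337 in GL_M_60, with a median of 0.293 in the other 10 cells beside 0.688, 0.230 and 0.101, and Pfkfb3 had 438, with a median of 0.123 beside 0.170, 0.793 and 0.376. The source of the low values was not tested.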
